A study of Homo sapiens with 6 samples.

Results

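The 3 control libraries of SH-SY5Y cells are described here, out of 6 libraries in the series, and they were chosen by the control label alone. SH-SY5Y is a cell line derived from a human neuroblastoma, a tumour of the sympathetic nervous system lineage. The control cells had been transfected with the empty plasmid pcDNA3.1 by lipofection, then kept in 10 µM retinoic acid for 5 days and in 50 ng/mL of the neurotrophin BDNF without serum for 15 days. The other 3 libraries, from cells that received a Tau plasmid and the same treatments, are not compared here. Poly(A) RNA was sequenced in single reads of 51 cycles, with a stranded kit that the sample labels and the paper name differently, and no source says that the 3 libraries come from separate cultures. Untreated SH-SY5Y cells are not among the libraries, so every value is a level after treatment and none is a response to it.

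Sympathetic neurons and the neuroblastoma cells related to them are set apart by a circuit of transcription factors, among them HAND2, PHOX2A and the GATA factors, that bind to one another's genes and to those of noradrenaline synthesis. Tyrosine hydroxylase (TH) makes DOPA from tyrosine, DDC makes dopamine from it, and DBH converts dopamine to noradrenaline inside dense-core granules. Retinoic acid and BDNF are used in sequence on this line to obtain cells with long neurites that divide less.

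The libraries held 31706415, 31704850 and 28212396 reads in genes, and 23682 to 24099 genes had a read in each. The 37 genes of the mitochondrial genome (MT- genes) took 45.6, 30.5 and 45.6% of the reads of libraries 1, 2 and 3 (mean 40.6 ± 8.74%, SD, n = 3), so library 2 stood apart. Among them MT-CO1, a subunit of cytochrome c oxidase, took 17.4, 16.6 and 18.1% of the MT- reads and MT-ND4, a subunit of complex I, took 14.4, 14.1 and 14.3%. Levels are therefore given as RPM, reads per 1000000 reads outside MT- genes, and as RPKM, that value per kilobase of the gene length the authors used, which are 1.84, 1.44 and 1.84 times the deposited values in libraries 1, 2 and 3. Wilson 95% intervals of the shares are at most 0.0189 percentage points to either side and cover counting error only. A count of 0 in a library allows a level of up to 3 reads, or 0.136 to 0.196 RPM.

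A gene is counted as expressed here when it reached 1 RPKM in every control library and near 0 when it stayed below 0.1 RPKM in all of them. Of 19760 protein-coding genes, 10281 (52.0%) were expressed and 6174 (31.2%) were near 0, and these shares are the background for each count of list members that follows. The expressed protein-coding genes had a median of 7.54 RPKM, with quartiles of 3.63 and 16.2 RPKM and a 95th percentile of 64.8 RPKM. At or above 1 RPM in every library were 14501 genes, of which 12063 (83.2%) were protein-coding, 906 long noncoding and 1390 pseudogenes. Reads were concentrated, since 82 genes held 25% and 819 genes held 50% of the RPM.

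The most abundant transcripts outside MT- genes fell into a group assigned to nuclear copies of mitochondrial genes and a group of translation, signalling and granule genes. Of the 20 genes with the highest RPM, 9 were nuclear copies of mitochondrial genes, pseudogenes for the most part, led by MTCO1P12 at 51057, 25032 and 52749.7 RPM. Reads in MTCO1P12 amounted to 34.9, 34.5 and 34.7% of those in MT-CO1 in libraries 1, 2 and 3, and reads in all such copies to 15.5, 15.8 and 14.9% of those in all MT- genes. The copies thus kept nearly the same proportion to the mitochondrial genes in each library while the mitochondrial share itself ran from 30.5 to 45.6%. The alignment kept 1 location per read, and whether these reads come from the copies or from mitochondrial RNA was not tested. The copies took 12.99, 6.92 and 12.5% of the reads outside MT- genes. The first 20 genes together took 17.1, 11.9 and 17.2% of those reads in libraries 1, 2 and 3, and the first 20 without copies took 7.24, 7.98 and 8.01% of the reads left.

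Outside those copies, GNAS, the stimulatory G protein alpha subunit, was first with 7971, 6338 and 12448 RPM. EEF1A1, the elongation factor that brings aminoacyl-tRNA to the ribosome, followed with 7985, 10690.3 and 7204 RPM. RGS5, a regulator that shortens G protein signalling, had 5322, 6216 and 6595 RPM. The order of GNAS and EEF1A1 was not the same in every library, since EEF1A1 was higher in libraries 1 and 2 and GNAS in library 3. TPT1, a growth-related protein with high translation, had 3956, 5001 and 3682 RPM, and ARHGAP36, an inhibitor of protein kinase A, had 3228, 4442 and 2820.4 RPM. ACTB, beta-actin, was at 2402, 2427 and 3749 RPM and GAPDH, the glycolytic enzyme, at 2452, 2907 and 2876 RPM. The calmodulin gene CALM2 and the granule protein gene CHGA were also among the first 20, with means of 2972 and 2903 RPM. Ribosomal protein genes made up 8 of the 20 highest once the copies were left out, among them RPL4 and RPS18, and all ribosomal protein genes took 7.75, 10.1 and 7.70% of the reads outside MT- genes. Per kilobase the first places without the copies went to RPS18 at 1527, 1973 and 1457 RPKM and EEF1A1 at 1343, 1797 and 1211 RPKM, and RPS27, TMSB10, ARHGAP36, RPL19, CHGA, GAPDH and RGS5 were also among the first 10. Genes such as EEF1A1, RPS18, ACTB and GAPDH have many processed pseudogenes, between which a single kept alignment can divide reads, so their levels are uncertain to that extent.

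**Figure D1:**
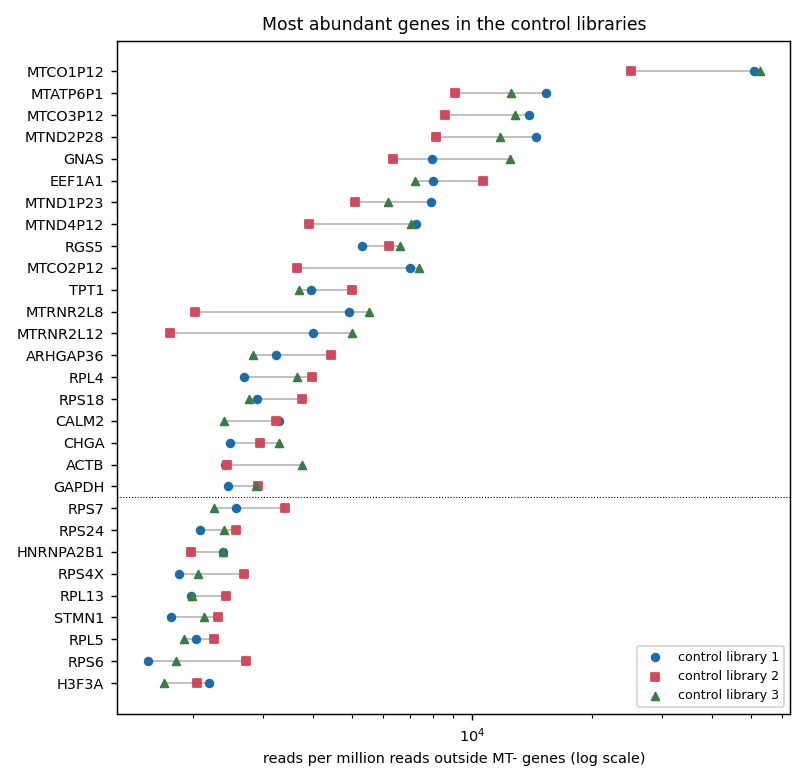
RPM outside MT- genes (log axis) of the 20 most abundant genes (above the dotted line) and of the 9 that enter when nuclear copies of mitochondrial genes are left out, with 1 point per control library and a line over their range. MTCO1P12 and the other copies were lowest in library 2, while EEF1A1 and ARHGAP36 were highest there.

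Of the 5 genes given as markers of these cells, HAND2, DBH, STMN2 and GAP43 were expressed and TH was not. HAND2, a transcription factor of sympathetic neurons (chromosome 4, 173524969 to 173530229, minus strand, GRCh38), had 159, 243 and 201 RPKM. DBH (chromosome 9, 133636363 to 133659329, plus strand) had 147, 222 and 129.9 RPKM. TH (chromosome 11, 2163929 to 2171815, minus strand) held 3, 3 and 25 reads, which is 0.0537, 0.042 and 0.503 RPKM. The enzyme that opens the pathway was thus near the counting floor in libraries 1 and 2 while the one that closes it stood above the 95th percentile of expressed genes in all 3. STMN2, a microtubule-destabilising protein of growth cones (chromosome 8, 79611117 to 79666158, plus strand), had 409, 479 and 390.3 RPKM. GAP43, another growth cone protein (chromosome 3, 115623510 to 115721490, plus strand), had 13.95, 23.3 and 17.1 RPKM. The marker set therefore held in 4 of 5 genes, and TH went against it. Antisense transcription units cover 24.1% of the exon bases of HAND2, and the strand setting of the read counting is not stated, so antisense reads cannot be told apart from its own. The same holds, on either strand, for over 20% of the exon bases of VIM, VIP, SLC6A2, DDIT3, DUSP6, CRABP1, CHRNA5, OPRL1 and CYP26A1, which are named further on.

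Of 27 genes of the noradrenergic core circuit, 23 were expressed and 1 was near 0, with a median of 16.5 RPKM. PHOX2A, a homeodomain factor of autonomic neurons, had 145, 226 and 166 RPKM. ISL1, a LIM homeodomain factor of sympathetic and motor neurons, had 141, 175 and 167 RPKM. HAND2, PHOX2A and ISL1 were each lowest in library 1 and highest in library 2, and their ranges overlapped. GATA2, TFAP2B and GATA3 averaged 98.8, 85.1 and 75.2 RPKM. TFAP2A, the relative of TFAP2B, was near 0 with 9 reads in all. MYCN, the oncogene that is amplified in many neuroblastomas, had 3.88, 5.89 and 3.78 RPKM, and MYC had 1.31, 3.54 and 1.13 RPKM.

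Of 20 genes for the synthesis, storage, uptake and breakdown of catecholamines, 15 were expressed, against 52.0% of protein-coding genes, and the exceptions were TH, MAOB, SLC18A2, SLC6A3 and ALDH1A1. DDC, the decarboxylase between TH and DBH, had 23.2, 31.8 and 25.4 RPKM, and the level of DBH was 5.12 to 6.98 times that of DDC within each library. The cofactor of TH, tetrahydrobiopterin, is made by GCH1, PTS and SPR, and GCH1, its first and limiting enzyme, had 76.7, 96.7 and 60.03 RPKM. PTS had 34.8, 26.1 and 33.5 RPKM and SPR had 9.45, 13.8 and 13.6 RPKM. PCBD1 and QDPR, which regenerate the cofactor, had means of 96.3 and 26.5 RPKM. The cofactor pathway was thus expressed from end to end while the hydroxylase that uses it was not. CYB561, the cytochrome that supplies electrons for DBH inside granules, had 93.4, 94.2 and 100.3 RPKM.

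Transport into granules differed between the 2 vesicular monoamine transporters. SLC18A1 (VMAT1), the form of endocrine cells, had 33.9, 27.1 and 43.7 RPKM, while SLC18A2 (VMAT2), the form of neurons, had 0.294, 0.23 and 0.551 RPKM, so the level of SLC18A1 was 79.4 to 118 times that of SLC18A2 within each library. SLC18A2 shares 56.4% of its exon bases with transcripts on the other strand. SLC6A2, the noradrenaline transporter, had 7.83, 7.84 and 7.41 RPKM, while SLC6A3, the dopamine transporter, had no read in any library. PNMT, which makes adrenaline from noradrenaline, was expressed at 4.82, 3.74 and 4.88 RPKM. Of the monoamine oxidases, enzymes of breakdown, MAOA had 1.97, 3.14 and 3.07 RPKM and MAOB had 1.18, 0.895 and 1.58 RPKM, which left MAOB just below the threshold in library 2 alone. The aldehyde and aldose enzymes ALDH2 and AKR1B1 had means of 18.5 and 36.4 RPKM, while ALDH1A1 had no read.

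**Figure D2:**
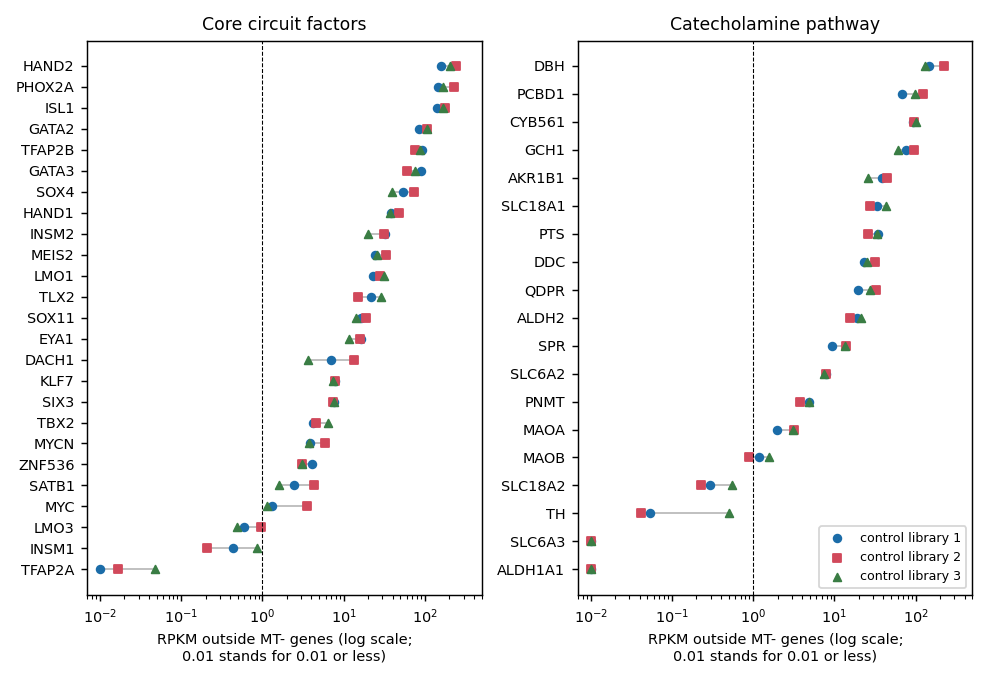
Level in RPKM outside MT- genes (log axis, values of 0.01 or less drawn at 0.01) of 25 core circuit factors (left) and 19 catecholamine pathway genes (right), 1 point per control library, dashed line at 1 RPKM. TH, SLC18A2, SLC6A3 and ALDH1A1 lie to the left of the line in every library, while HAND2, PHOX2A and DBH lie above 100 RPKM in each.

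Dense-core granules store catecholamines with chromogranins, and their genes were among the highest. Of 11 granule genes 9 were expressed, with a median of 61.7 RPKM. CHGA, chromogranin A, had 797, 951 and 1059.7 RPKM and VGF, a secreted granule protein induced by neurotrophins, had 228, 161 and 416 RPKM. CHGB, chromogranin B, had 141, 319 and 149 RPKM and SCG2, secretogranin II, had 86.7, 126 and 89.1 RPKM. VGF and CHGB differed over 2-fold between libraries, but not in the same one, since VGF was highest in library 3 and CHGB in library 2. CPE, which trims peptides, had 84.4, 139 and 77.6 RPKM, and PAM, which amidates them, had 12.1, 11.4 and 12.5 RPKM. The prohormone convertases that cut peptide precursors were not, with PCSK2 at 0.27, 0.263 and 0.221 RPKM and PCSK1 at 0.109, 0.0342 and 0.0369 RPKM.

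The promoters of CHGA, VGF and SLC18A2 hold the same 8-base element, and they are printed here as examples, chosen after their values were seen, of high and low genes that share it. The windows run from 250 bases before to 50 bases after the transcription start that RefSeq gives on GRCh38.p14, 5′ to 3′ on the strand of the gene, and capitals mark the cyclic AMP response element TGACGTCA, which reads the same on both strands (in DBH, its first 7 letters TGACGTC). SST, the somatostatin gene from which the element is best known, had no read in any library and is shown beside them.
CHGA (chr14:92922900-92923199, plus strand): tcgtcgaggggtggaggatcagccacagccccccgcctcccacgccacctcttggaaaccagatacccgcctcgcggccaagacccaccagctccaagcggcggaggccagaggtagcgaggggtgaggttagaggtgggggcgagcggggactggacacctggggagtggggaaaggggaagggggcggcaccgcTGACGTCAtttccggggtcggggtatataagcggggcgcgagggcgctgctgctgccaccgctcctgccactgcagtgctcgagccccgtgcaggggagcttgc
VGF (chr7:101165520-101165819, minus strand): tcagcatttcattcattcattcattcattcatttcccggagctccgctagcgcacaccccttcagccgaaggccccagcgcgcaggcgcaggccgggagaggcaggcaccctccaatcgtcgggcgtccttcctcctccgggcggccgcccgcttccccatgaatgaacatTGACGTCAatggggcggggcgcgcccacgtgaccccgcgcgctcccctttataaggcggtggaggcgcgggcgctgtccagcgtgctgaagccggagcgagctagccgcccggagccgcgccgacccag
DBH (chr9:133636113-133636412, plus strand): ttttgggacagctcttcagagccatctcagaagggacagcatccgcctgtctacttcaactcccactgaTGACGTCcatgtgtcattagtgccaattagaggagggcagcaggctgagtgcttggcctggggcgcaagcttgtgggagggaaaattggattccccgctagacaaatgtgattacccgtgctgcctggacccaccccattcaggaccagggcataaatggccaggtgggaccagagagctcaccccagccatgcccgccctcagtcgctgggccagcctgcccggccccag
SLC18A2 (chr10:117240864-117241163, plus strand): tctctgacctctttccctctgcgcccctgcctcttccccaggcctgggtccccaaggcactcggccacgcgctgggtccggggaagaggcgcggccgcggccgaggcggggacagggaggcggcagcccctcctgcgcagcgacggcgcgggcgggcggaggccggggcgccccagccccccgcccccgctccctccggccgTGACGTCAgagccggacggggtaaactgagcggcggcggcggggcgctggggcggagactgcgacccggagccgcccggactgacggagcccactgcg
SST (chr3:187670345-187670644, minus strand): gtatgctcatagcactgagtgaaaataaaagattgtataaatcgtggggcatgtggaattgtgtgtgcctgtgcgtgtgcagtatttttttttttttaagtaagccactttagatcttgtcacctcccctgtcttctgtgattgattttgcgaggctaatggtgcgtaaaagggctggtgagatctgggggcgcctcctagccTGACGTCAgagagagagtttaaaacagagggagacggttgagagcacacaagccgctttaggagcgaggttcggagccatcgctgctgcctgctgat
The element starts 54 bases before the transcription start in CHGA, 79 in VGF, 48 in SLC18A2 and 47 in SST, and the shorter match starts 181 bases before it in DBH. Of 35116 windows of this length, 649 (1.85%) hold TGACGTCA on either strand, and 1210 (3.45%) hold TGACGTC. Mean levels of the 4 genes with the full element ran from no read for SST and 0.358 RPKM for SLC18A2 to 268 for VGF and 936 for CHGA. High and low genes were picked on purpose, so this range says nothing about the element. Of 22 list genes with the element in a window 15 were expressed and 3 had no read, and it is also held by PCSK1, the lowest granule gene, and by CARTPT, a neuropeptide gene with 13.5, 7.35 and 24.9 RPKM. Of 447 protein-coding genes with the element in a window, 344 were expressed (77.0%), against 54.997% of the rest of the 14837 protein-coding genes that have a window, a comparison not matched on base composition or on the number of windows per gene. A match describes letters and shows no binding.

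Of 28 neuropeptide genes, 9 were expressed and 15 were near 0, 11 of them without any read. NPY, neuropeptide Y, the classic cotransmitter of sympathetic neurons, had 343, 263 and 378 RPKM. GAL, galanin, had 57.4, 64.4 and 103 RPKM, and VIP, the vasodilator peptide of parasympathetic and some sympathetic neurons, had 42.9, 44.4 and 42.5 RPKM. NMU, neuromedin U, had 20.5, 23.5 and 13.8 RPKM. NPY was the highest in every library, and its lowest library lay above the highest of GAL. No library held a read of TAC1, PENK, SST, ADCYAP1, CCK, PDYN or CRH, which encode substance P, enkephalin, somatostatin, PACAP, cholecystokinin, dynorphin and corticotropin-releasing hormone.

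Genes of axon growth and of young neurons were high, while the list of mature neuron genes had a lower median, though above that of all protein-coding genes. Of 25 growth genes 24 were expressed, with a median of 55.9 RPKM, above the third quartile of expressed genes. STMN2 was first in the list, followed by STMN1 at 281, 369 and 341 RPKM, UCHL1, a neuronal ubiquitin hydrolase, at 269, 314 and 298 RPKM and TUBA1A, an alpha-tubulin, at 239.8, 358 and 182 RPKM. GAP43 was far lower per kilobase than STMN2, with a ratio of STMN2 to GAP43 of 20.6 to 29.3 within each library. The growth genes that differed over 2-fold were DCX, TUBB3, TUBB2A, MARCKS and CD24, and 4 of those 5 were highest in library 2. These were 20% of the 25, against 14.1% of all genes with a mean of at least 1 RPM. The exception in level was TUBB3, the neuronal beta-tubulin, at 0.55, 0.266 and 0.324 RPKM. TUBB3 shares 21.3% of its exon bases, on the same strand, with a readthrough gene that had no read itself, and reads that fall in both can be left uncounted, so this low level is uncertain.

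Of 16 mature neuron genes 10 were expressed and 3 were near 0. The median of all 16 was 7.14 RPKM, against 1.59 RPKM for all protein-coding genes. Protein-coding genes that were expressed had a median of 7.54 RPKM, a value that leaves out unexpressed genes and so is not a like comparison. INA, internexin, an early neurofilament, had 78.6, 71.6 and 81.8 RPKM. The light neurofilament NEFL had 19.8, 25.5 and 20.5 RPKM, and the splicing factor RBFOX2 and the tubulin TUBB4A had means of 20.3 and 17.8 RPKM. MAPT, which encodes Tau itself, had 4.37, 6.69 and 5.33 RPKM in these control cells. RBFOX3, the NeuN antigen, was near 0 at 0.0294, 0.00919 and 0.066 RPKM, as were RBFOX1 and CAMK2A, the alpha subunit of the calcium and calmodulin kinase, with 15 and 6 reads in all. The chloride exporter SLC12A5 (KCC2) and importer SLC12A2 (NKCC1), whose balance shifts as neurons mature, had 0.56, 0.54 and 0.578 RPKM and 0.762, 0.638 and 0.459 RPKM. Of 42 synaptic genes 32 were expressed, with a median of 3.63 RPKM, led by the vesicle proteins SYT4 at 64.0, 67.2 and 58.6 RPKM and SNAP25 at 52.0, 57.1 and 43.7 RPKM. SV2B, NRXN3 and SNCG were near 0, SNCG without a read.

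Proliferation genes were expressed without exception. All 21 DNA replication genes and all 24 mitosis genes reached 1 RPKM in every library, with medians of 14.04 and 14.2 RPKM, and the median of all 45 lay above 71.1% of expressed protein-coding genes. PCNA, the clamp of DNA polymerase, had 189, 211 and 197 RPKM, and CKS2, a subunit of the cyclin-dependent kinases, had 218, 215 and 209.9 RPKM. HMGB2, a chromatin protein of dividing cells, had 204, 184 and 158 RPKM, and MCM7, a helicase subunit, had 62.4, 53.1 and 65.4 RPKM. TOP2A, topoisomerase II alpha, had 33.1, 35.2 and 23.8 RPKM, and MKI67, the Ki-67 antigen, 3.61, 4.28 and 4.83 RPKM. None of the 45 genes differed over 2-fold between libraries, where 14.1% of all genes with a mean of at least 1 RPM did. The 45 lay at higher levels, 33 of them at 10 to 100 RPM and 12 at 100 to 1000 RPM, where 7.80% and 6.57% of all genes differed over 2-fold. In a culture, the number of dividing cells and the RNA per dividing cell cannot be told apart. Of 15 genes of cyclin-dependent kinase inhibitors, D cyclins and pocket proteins, 12 were expressed beside the proliferation genes. Among these were the inhibitors CDKN1C at 40.3, 34.1 and 62.5 RPKM and CDKN1B at 34.9, 52.9 and 24.4 RPKM. CCND1, cyclin D1, had 56.8, 54.6 and 69.9 RPKM, while CCND2, cyclin D2, had no read in any library.

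**Figure D3:**
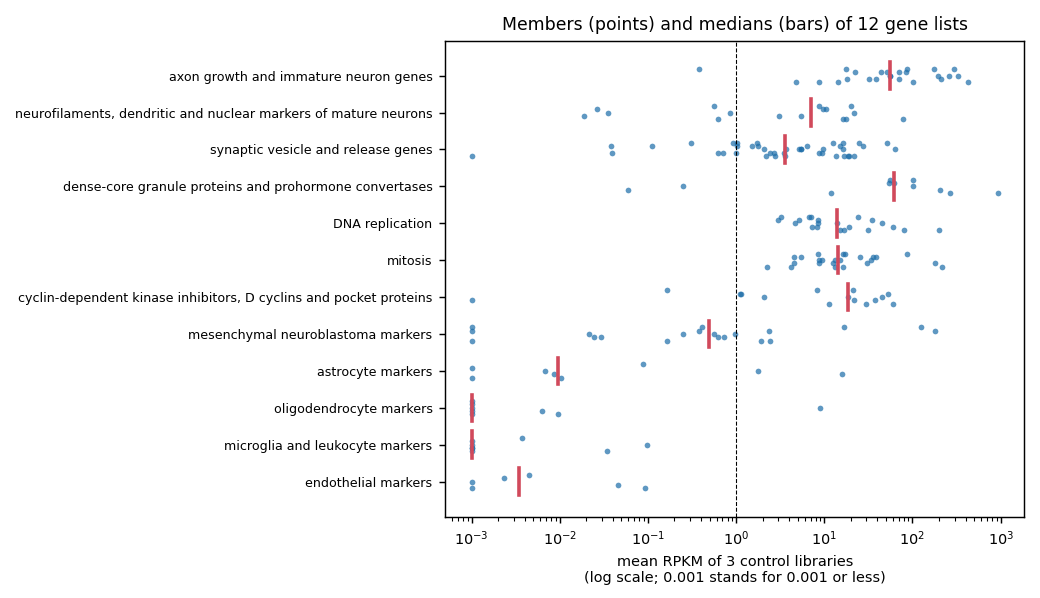
Mean RPKM of the 3 control libraries (log axis, values of 0.001 or less drawn at 0.001) for each member of 12 gene lists, with a red bar at the median of the list and a dashed line at 1 RPKM. Every DNA replication and mitosis gene lies to the right of the line, while most astrocyte, oligodendrocyte, microglia and endothelial markers lie far to its left.

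Of 155 receptor genes for transmitters and peptides in 13 families, 25 (16.1%) were expressed and 94 were near 0, 52 of these without a read. Among protein-coding genes as a whole 52.0% were expressed and 31.2% were near 0. In 11 of the 13 families at least 1 member was expressed, and 6 receptor genes reached 10 RPKM in every library, namely CHRNA3, DRD2, ADRA2C, CHRM3, GRIK2 and CHRNB2. Most families were thus carried by 1 or a few members.

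Of 16 nicotinic receptor subunits 5 were expressed. CHRNA3, the alpha subunit of the ganglionic nicotinic receptor, was the highest of all 155 at 73.3, 71.6 and 66.5 RPKM. CHRNB2 had 10.4, 13.4 and 13.9 RPKM and CHRNA5 had 10.1, 12.5 and 9.09 RPKM. CHRNB4, the beta subunit that lies beside CHRNA3 in the genome and joins it in ganglia, had only 1.17, 0.967 and 0.695 RPKM, which kept it out of the 5. The subunits CHRNA4, CHRNA6 and CHRNB3, found in brain dopamine neurons, were near 0, the last 2 without a read, as was the muscle subunit CHRNA1. Of 5 muscarinic receptors only CHRM3, which couples to Gq, was expressed, at 17.9, 20.4 and 16.3 RPKM.

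The expressed catecholamine receptors were all of the kind that couples to the inhibitory G protein Gi. ADRA2C, an alpha-2 autoreceptor of sympathetic neurons, had 20.4, 16.1 and 23.2 RPKM, and the other 8 adrenergic receptors were near 0, with 0 to 7 reads each over the 3 libraries. DRD2, the dopamine D2 receptor, had 26.0, 23.6 and 31.2 RPKM and DRD4 had 1.45, 1.81 and 4.50 RPKM, with DRD4 over 2-fold higher in library 3 than in library 1. DRD1, DRD3 and DRD5 were near 0, with 1 read of DRD5 in all. Of 14 serotonin receptors HTR1E, also Gi-coupled, was expressed at 6.11, 6.61 and 5.59 RPKM, while HTR1A, HTR1B, HTR2A and HTR7 had no read.

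Most receptor genes for the fast amino acid transmitters were not expressed. Of 18 ionotropic glutamate receptor subunits 3 were expressed, GRIK2, a kainate receptor subunit, at 17.4, 13.5 and 12.4 RPKM, GRIK5 at 4.72, 5.34 and 5.84 RPKM and GRIN1, the obligatory NMDA receptor subunit, at 1.84, 1.63 and 2.73 RPKM. GRIN2A and GRIN2B, the partners of GRIN1 in most cortical NMDA receptors, had no read, and the AMPA receptor subunit GRIA2 had 2.20, 2.19 and 0.904 RPKM. Of 21 GABA receptor subunits 3 were expressed, among them GABBR1 at 4.58, 3.54 and 5.57 RPKM and GABRA3 at 1.85, 3.25 and 2.21 RPKM, and 11 had no read. GLRB, the glycine receptor beta subunit, had 3.52, 3.21 and 2.17 RPKM, but no alpha subunit was expressed.

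Of 30 peptide and opioid receptors 4 were expressed and 21 were near 0. NPY2R, the presynaptic receptor for neuropeptide Y, had 3.79, 5.23 and 2.08 RPKM, the mu opioid receptor OPRM1 had 2.37, 2.09 and 2.16 RPKM, the nociceptin receptor OPRL1 1.93, 1.93 and 2.22 RPKM and the delta opioid receptor OPRD1 1.502, 1.75 and 1.40 RPKM. NPY1R, NPY5R and the galanin receptors GALR1, GALR2 and GALR3 were near 0, although NPY and GAL were expressed. The purine receptors P2RY11, P2RX6 and P2RX4 were the expressed 3 of 19, at means of 5.15, 2.41 and 1.17 RPKM, of which P2RY11 shares 55.9% of its exon bases with a neighbour on the same strand. No histamine or cannabinoid receptor was expressed. The highest histamine receptor gene had a mean of 1.02 RPKM and fell below the threshold in library 2 alone, at 0.781 RPKM.

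**Figure D4:**
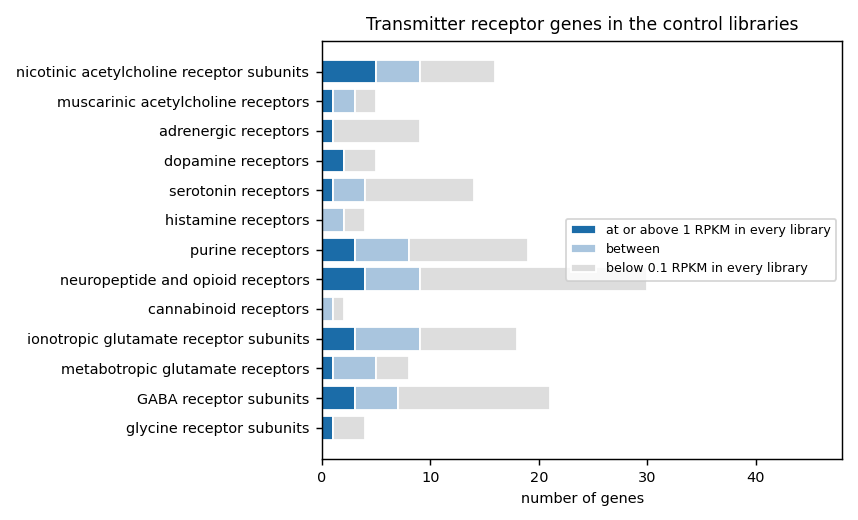
Number of receptor genes in each of 13 families that reached 1 RPKM in every control library (dark blue), stayed below 0.1 RPKM in every control library (grey), or lay between (light blue). Nicotinic subunits hold 5 expressed genes of 16, and the 9 adrenergic receptors hold 1.

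The machinery of transmitters other than catecholamines was incomplete for acetylcholine, GABA, glutamate, serotonin and histamine. Of 28 genes 8 were expressed and 12 were near 0. SLC18A3, the vesicular acetylcholine transporter, had 12.7, 10.9 and 22.7 RPKM, and ACHE, acetylcholinesterase, had 15.6, 12.2 and 26.6 RPKM, both highest in library 3. CHAT, which makes acetylcholine, held 2 reads in all, and SLC5A7, which takes up choline, held none. SLC18A3 lies within the first intron of CHAT, so the 2 share a locus but not their level. For GABA, GAD1, which makes it from glutamate, had 1.55, 0.611 and 1.86 RPKM, GAD2 had no read, and the vesicular transporter SLC32A1 had 0.0902, 0.141 and 0.152 RPKM. For glutamate, the vesicular transporters SLC17A6 and SLC17A8 had no read and SLC17A7 had 0.28, 0.332 and 0.651 RPKM. For serotonin, TPH1, TPH2 and the transporter SLC6A4 held 19, 6 and 2 reads in all, and for histamine HDC held none. NOS1, neuronal nitric oxide synthase, was expressed at 2.07, 2.41 and 2.103 RPKM.

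Ion channels of excitable cells were present at low levels, with 5 of 14 sodium channel, 2 of 10 calcium channel and 6 of 22 potassium channel genes expressed. KCNH2, the hERG potassium channel, was the highest at 33.2, 39.6 and 48.6 RPKM. SCN3A and SCN9A, sodium channels of embryonic and of sympathetic neurons, had 6.56, 5.67 and 3.05 RPKM and 3.74, 3.17 and 2.98 RPKM. CACNA1B, the N-type calcium channel of sympathetic terminals, had 4.50, 3.65 and 5.45 RPKM, while CACNA1A, the P/Q-type channel of central synapses, had no read.

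Of 26 genes of receptors for BDNF and other growth factors, with coreceptors, 15 were expressed and 4 were near 0. Among all protein-coding genes 52.0% were expressed. NTRK2, the BDNF receptor TrkB, had 5.70, 5.67 and 4.03 RPKM. RET, the receptor of the GDNF family, was the highest of 26 receptor genes at 147, 121 and 150.4 RPKM, and of its coreceptors GFRA3, for artemin, had 8.02, 15.5 and 6.81 RPKM while GFRA1, for GDNF, was near 0. NTRK3 and MET were near 0. Of 13 ligand genes 5 were expressed and 3 were near 0. The midkine gene MDK had 203, 313 and 204 RPKM and PTN, pleiotrophin, 72.9, 74.8 and 76.0 RPKM. GDNF had no read and BDNF itself had 0.382, 0.44 and 0.413 RPKM.

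Of 31 retinoid genes 12 were expressed and 12 near 0. CRABP1, which carries retinoic acid, had 32.1, 36.1 and 82.7 RPKM, STRA6, the retinol importer, 34.6, 25.5 and 51.7 RPKM and CRABP2 32.2, 23.1 and 55.3 RPKM. All 3 of these were over 2-fold higher in library 3 than in library 2. Over 2-fold differences were seen in 6 of the 16 retinoid genes with a mean of at least 1 RPM (37.5%), against 14.1% of all such genes. Of these 6, 5 were highest in library 3 and 1, RARB, in library 2. RARB and CYP26A1, which encode a receptor and the main degrading enzyme of retinoic acid, are textbook direct targets of retinoic acid receptors, and in these cells, sampled after 15 days in BDNF, had 3.31, 4.32 and 1.46 RPKM and 0.722, 0.351 and 0.812 RPKM. Their promoters are printed because each holds a direct repeat of the kind that retinoic acid receptors bind, searched on both strands as GTTCA, then any 5 bases, then AGTTCA, and marked in capitals as read on the strand shown.
RARB (chr3:25428013-25428312, plus strand): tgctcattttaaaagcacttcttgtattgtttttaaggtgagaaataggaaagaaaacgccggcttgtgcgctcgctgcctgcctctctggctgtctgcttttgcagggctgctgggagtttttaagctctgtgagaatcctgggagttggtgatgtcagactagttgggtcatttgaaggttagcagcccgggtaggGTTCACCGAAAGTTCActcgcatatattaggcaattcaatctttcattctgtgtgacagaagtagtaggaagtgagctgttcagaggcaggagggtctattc
CYP26A1 (chr10:93073643-93073942, plus strand): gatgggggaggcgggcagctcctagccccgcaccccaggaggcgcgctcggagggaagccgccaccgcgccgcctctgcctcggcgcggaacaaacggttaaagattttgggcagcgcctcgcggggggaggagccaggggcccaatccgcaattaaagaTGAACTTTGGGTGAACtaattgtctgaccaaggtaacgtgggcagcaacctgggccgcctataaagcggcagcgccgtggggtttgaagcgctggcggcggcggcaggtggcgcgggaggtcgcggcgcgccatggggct
The repeat starts 52 bases before the start of 1 of 4 RARB windows, reading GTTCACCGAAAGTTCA, and 90 bases before that of 1 of 2 CYP26A1 windows, on the opposite strand. Only 12 of 35116 windows (0.0342%) hold these letters. Of the 6 protein-coding genes with the repeat in a window 3 were expressed (50%), against 55.7% of the other protein-coding genes that have a window. With 6 genes these shares cannot be compared. RARB was expressed and CYP26A1 was not, although CYP26A1 stayed above 0.1 RPKM in each library.

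Of 20 genes that activity or growth factors can induce, immediate early genes among them, 13 were expressed. JUND had 82.4, 73.1 and 127 RPKM, FOS 83.3, 28.7 and 87.9 RPKM, DUSP6, a phosphatase of the ERK kinases, 67.7, 48.1 and 58.5 RPKM and JUN 34.6, 37.2 and 47.9 RPKM. FOS, FOSB, EGR1, ARC, NPAS4 and NR4A1 differed over 2-fold between libraries, and all 6 were lowest in library 2. They were 6 of the 15 with a mean of at least 1 RPM (40%), where 14.1% of all such genes differed over 2-fold. EGR3, NR4A3, EGR4 and NR4A2 were near 0.

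Markers of other cell types were low as lists, each with a median below 1 RPKM, but some members were expressed. Of 52 markers of astrocytes, microglia, oligodendrocytes, Schwann cells, fibroblasts, endothelium and epithelium, 9 (17.3%) were expressed and 34 near 0. Among the expressed ones were ALDOC, a glycolytic enzyme, at 10.7, 14.2 and 23.1 RPKM, S100B at 1.32, 1.94 and 2.12 RPKM, CNP at 7.70, 10.8 and 8.44 RPKM, PMP22 at 19.3, 24.3 and 22.2 RPKM, PDGFRB, COL3A1, LUM and EPCAM. GFAP, AIF1, CSF1R, MOG, SOX10, PECAM1, CDH5 and CDH1 were among the 20 of the 52 that had no read in any library. Every fibroblast marker held reads, with 3 of 8 expressed and a median of 0.921 RPKM, and 3 of 9 Schwann cell markers were expressed. Summed over a list, astrocyte markers ran from 12.2 to 25.3 RPKM per library and microglia markers from 0.0649 to 0.221 RPKM.

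Of 20 markers of the mesenchymal state of neuroblastoma 5 were expressed, with a median of 0.488 RPKM. VIM, vimentin, had 172, 183 and 187 RPKM, TWIST1, a factor of neural crest and of mesenchyme, 132, 128 and 111 RPKM, and THY1 and NOTCH3 had means of 16.7 and 2.43 RPKM. YAP1 and WWTR1, the effectors of Hippo signalling, and the homeodomain factors PRRX1, MEOX1 and MEOX2 were near 0. Of 22 regulators of other neuron types 4 were expressed, among them NEUROG2, a proneural factor of sensory and cortical neurons, at 57.3, 82.8 and 51.9 RPKM, FEV, the factor of serotonin neurons, at 40.8, 45.5 and 54.2 RPKM, and NEUROD1. LMX1A, EN1, FOXA2 and NR4A2, which specify midbrain dopamine neurons, had no read. FEV stood high without TPH2, SLC6A4 or HTR1A, the genes it is known to act on in serotonin neurons. Of 7 pluripotency markers LIN28B alone was expressed, at 4.02, 2.99 and 2.62 RPKM.

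Stress and reference genes were measured beside these. Of 19 genes of amino acid and endoplasmic reticulum stress 17 were expressed, with a median of 30.1 RPKM, led by ATF4 at 278, 233 and 368 RPKM, HSPA5, the chaperone BiP, at 178, 339 and 148 RPKM, PSAT1 at 156, 117 and 159 RPKM and DDIT3 at 66.7, 52.9 and 87.1 RPKM. HSPA5 was highest in library 2, where ATF4 and DDIT3 were lowest. Over 2-fold differences were seen in 7 of the 19 (36.8%), against 14.1% of all genes with a mean of at least 1 RPM. All 11 p53 targets were expressed, with a median of 9.43 RPKM. All 16 reference genes were expressed. None differed over 2-fold, against 14.1% of all genes with a mean of at least 1 RPM and 6.57% of those at 100 to 1000 RPM. ACTB was 1.56 times higher in library 3 than in library 1.

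The 3 control libraries differed by far more than counting noise. Pairs of libraries had a chi-square per degree of freedom of 66.5 (1 and 2), 28.5 (1 and 3) and 90.2 (2 and 3) over 15311 genes with a mean of at least 1 RPM, so no pair agreed within sampling noise. Across those genes, log2 levels (pseudocount 0.1 RPM) had a Pearson correlation of 0.976 for libraries 1 and 2, 0.981 for 1 and 3 and 0.960 for 2 and 3, where genes share library and depth. The median gene had a coefficient of variation of 18.7%, where counting alone would give 4.94%. Among genes above 1000 RPM it was still 17.2%, where counting would give 0.556%, so depth was not the limit. The biological coefficient of variation in edgeR, its common estimate of the spread beyond counting, was 0.226. Between the highest and the lowest library 2164 of the 15311 genes (14.1%) differed over 2-fold, 27.4% of those at 1 to 10 RPM and 7.80% of those at 10 to 100 RPM. Without library 2 that share was 3.39%, without library 3 it was 4.97% and without library 1 it was 10.9%. The range of a gene over 2 libraries is never wider than over all 3.

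Part of the spread followed base composition. The deviation of a gene from its mean over the 3 libraries had a Spearman correlation with the GC content of its longest transcript of -0.35 in library 1, -0.23 in library 2 and 0.48 in library 3, across 15212 genes that share each library. Genes of 60% GC or more lay 0.22 above the mean on the log2 scale in library 3 and genes under 35% GC lay 0.31 below it. What produced the trend was not tested. Of 102 list genes of 60% GC or more with a mean of at least 1 RPM, 81 (79.4%) were highest in library 3, VGF (70.5% GC), SLC18A3 (67.2% GC) and DRD4 (73.3% GC) among them, against 235 (44.4%) of all 529 such list genes. Of 151 under 45% GC, 100 (66.2%) were lowest in library 3, against 169 (31.9%) of the 529. Single genes went the other way, such as DBH (61.5% GC), which was lowest in library 3, and PHOX2A (66.5% GC), which was highest in library 2. With the trend removed, a choice made after seeing the data, 10.5% of genes differed over 2-fold. That value used a pseudocount of 0.1 RPM and only genes with a GC value, unlike the 14.1% above, so the drop is not from the trend alone.

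Among named genes with a mean of at least 10 RPM, the 10 largest ranges were 8 gene copies of the 5.8S ribosomal RNA, which reads cannot tell apart, CDH23 and FOSB. CDH23, a cadherin of hair cell tip links, had 12.2, 4.95 and 31.0 RPM. FOSB, an immediate early factor, had 24.1, 4.36 and 19.2 RPM. Of the 10 largest among protein-coding genes, a list drawn after the values were seen, 6 were lowest in library 3 and 4 lowest in library 2. SELENOF, a selenoprotein of the endoplasmic reticulum, had 110.5, 153 and 34.0 RPM, and RCN2, a calcium-binding protein there, had 109, 185 and 43.1 RPM. At the other end, among genes above 100 RPM, YME1L1, a mitochondrial protease, had 109.6, 109 and 109 RPM and CPSF3, the nuclease that cuts messages before poly(A) addition, had 187, 185 and 188 RPM, with coefficients of variation of 0.325% and 0.756%. JPT2, ZNHIT1 and HNRNPU followed.

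**Figure D5:**
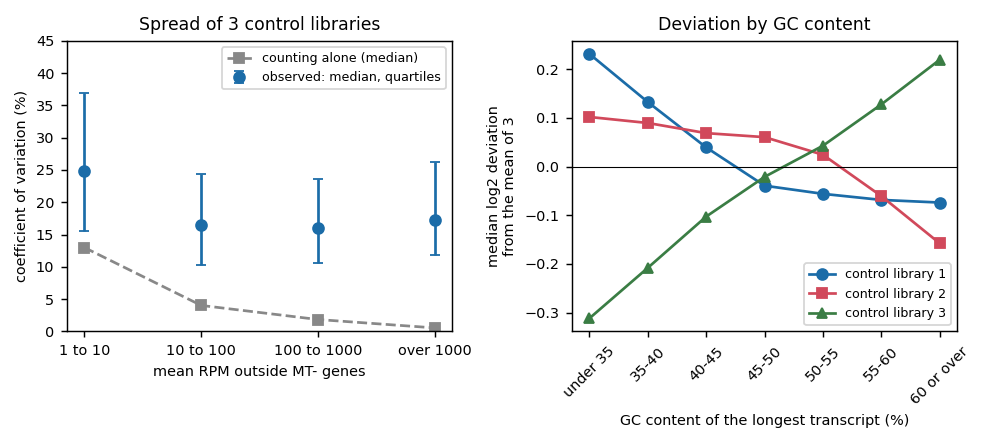
Left, coefficient of variation (%) over the 3 control libraries by mean RPM outside MT- genes, with the median and quartiles over genes (points and bars) and the median that counting alone gives (squares). Right, median log2 deviation of genes from their mean over the 3 libraries against the GC content of the longest transcript (%), 1 line per library. The median spread is 16.5, 16.0 and 17.2% in the 3 bins above 10 RPM while counting error falls to 0.556%, and library 3 runs against libraries 1 and 2 with GC content.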

How the data were processed

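Poly(A) RNA of SH-SY5Y cells was sequenced in 6 libraries, of which the 3 labelled control were used. The submitters' processing notes name bcl2fastq 1.8.4, TopHat2 2.1.0 on GRCh38, featureCounts 1.5.0 and R 3.4.1, and the paper's methods give 1 location kept per read. The authors deposited counts of reads per gene. The deposited RPM values are those counts per 1000000 reads of the library, and the deposited RPKM values are the RPM divided by 1 length per gene, as the columns show. Here counts were rescaled to reads outside MT- genes, and the gene lengths came from the ratio of deposited RPM to RPKM. Levels are described and no test was run. Scripts used Python 3.11.15, pandas 2.3.3 and R 4.3.3 with edgeR 4.0.16 (TMM scaling, dispersion with an intercept only) and DESeq2 1.42.0 (size factors). They were tested on simulated data with known levels and spread.

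Positions, gene types, GC content and exon overlap come from GENCODE 44, which matched 57754 of 58395 gene IDs, and promoter windows from RefSeq on GRCh38.p14. Of 825 list genes, 83 share over 20% of their exon bases with another gene on either strand and 27 on the same strand, and the strand setting of the counting is not given in the sources used here. The labels and the paper name different stranded kits. Whether the libraries come from separate cultures is not given either, so the spread between them may be technical. Library totals ran from 28212396 to 31706415 reads. The 3 libraries, the 44 gene lists of the report and 7 further lists were chosen with earlier results of these data known. Genes are named by a rule, which takes the 5 markers, the most abundant genes, the 4 highest members of each list, listed members below 0.1 RPKM in every library, all catecholamine and transmitter genes, the MT- protein genes, the 10 widest ranges among genes with a mean of at least 10 RPM (clone names and numbered loci passed over), and the 5 smallest coefficients of variation among genes with a mean of at least 100 RPM. Members outside it, among them MYCN, MYC, TUBB3, MAPT, CHRNB4, NTRK2, RARB, CYP26A1, BDNF, TOP2A and MKI67, are named after their values were seen. Alternatives changed the thresholds, the scaling (deposited values, TMM, DESeq2 size factors), the filter and the libraries, leaving out 1 at a time, and 2 were added after seeing the data, leaving out nuclear copies of mitochondrial genes and removing the GC trend. Comparisons with the Tau libraries are not made here, and some members of the lists are counted but not reported by name.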

Additional observations from a re-analysis of the deposited data

How the results depend on the processing

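Levels depended on the scaling and the spread on the libraries. No paired analysis was possible because the results come from no test and from 1 group. Without each library in turn, 14658 to 14826 genes were detected (14501 with all 3), 330 to 341 list genes of 683 were expressed (329 with all 3), 19 to 20 of the 20 most abundant genes stayed, their share ran from 14.5 to 17.2%, and the mitochondrial share from 38.1 to 45.6%. Detected and expressed genes must reach the threshold in every library, so leaving 1 out can only keep or raise those 2 counts. The median coefficient of variation then ran from 13.3 to 19.0%, the share of genes over 2-fold from 3.39 to 10.9% and the biological coefficient of variation from 0.183 to 0.274, lowest without library 2 in each case. The range of a gene over 2 libraries is never wider than over 3, so part of the lower share over 2-fold was fixed in advance. On the deposited RPM, which keeps the mitochondrial share in the total, the median coefficient of variation was 22.6% and 19.7% of genes differed over 2-fold, against 18.7 and 14.1%. With every gene of at least 1 read that coefficient was 29.3%, and at a mean of 10 RPM 7.58% of genes differed over 2-fold. The 20 most abundant genes took 8.98% of all reads when MT- genes were included and 7.75% when the nuclear copies were left out, against 15.4%. Of those 20 genes 13 were among the first 20 per length, and 11 remained without the copies. Of 51 list counts, 47 stayed within 1.5 times at 0.5 RPKM, 40 at 2 RPKM, 43 on the deposited RPKM and all 51 without the copies. With the copies left out 37 of 51 list medians moved by less than their spread, against 16 of 51 on the deposited RPKM. With 3 libraries of 1 group, each from an unstated number of cultures, small differences between libraries cannot be assigned to a source, and levels under 3 reads, 0.136 to 0.196 RPM, are below the counting floor. The cause of these shifts was not tested.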

Other observations

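Gene families outside the report held further contrasts, each from a list added after seeing the data and given without a test. HOX genes, which mark position along the body axis, split by cluster. Of the 11 HOXA and 10 HOXB genes none was expressed, with 1 and 6 reads in all over the 3 control libraries, while 4 of 9 HOXC genes and 4 of 9 HOXD genes were, led by HOXD8 at 14.7, 19.3 and 12.4 RPKM and HOXC4 at 11.9, 11.1 and 13.5 RPKM. The HOXC and HOXD genes held 3034 and 4208 reads. Of 16 genes of antigen presentation 5 were expressed. HLA-C had 9.30, 11.04 and 11.2 RPKM, while HLA-B had 0.228, 0.134 and 0.62 RPKM with 47.3% of its exon bases shared with other genes, HLA-DRA and the transactivator CIITA had no read, and NLRC5, the activator of class I genes, had 0.126, 0.0953 and 0.184 RPKM. HLA genes vary between genomes, and whether reads of this line's alleles were lost in alignment was not tested. Of 15 surface antigens described in neuroblastoma 10 were expressed, DLK1 at 299, 273 and 356 RPKM, L1CAM at 48.6, 56.1 and 63.1 RPKM and GPC2 at 24.5, 29.8 and 27.6 RPKM first, while ST8SIA1, the GD3 synthase on the way to the GD2 antigen, held 1 read and B4GALNT1, which completes GD2, had 4.88, 5.28 and 5.88 RPKM.

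Genes around Tau and amyloid were mostly expressed in these control cells. All 23 genes of microtubule-associated proteins and motors listed were expressed, as were 22 of 23 kinases and phosphatases that act on Tau, led by PPP2CA at 65.6, 51.7 and 65.7 RPKM, with 27.7% of its exon bases shared, CDK5 at 20.2, 31.4 and 28.4 RPKM and GSK3A at 17.9, 22.4 and 22.2 RPKM. PPP2R2B, a neuronal regulatory subunit of phosphatase 2A, was near 0. Of 21 genes of amyloid precursor processing and Alzheimer's disease risk 17 were expressed, and BACE2 and TREM2 had no read. APP at 56.2, 106 and 59.8 RPKM and APLP1 at 53.6, 66.7 and 71.8 RPKM came first. Of 28 histone acetyltransferases and deacetylases 27 were expressed, KAT2A at 23.4, 18.1 and 37.6 RPKM, HDAC2 at 16.7, 19.1 and 15.3 RPKM and KAT8 at 16.4, 17.2 and 17.1 RPKM first. Among long noncoding RNAs with a name, GAS5 had 174, 229 and 149 RPKM and MALAT1 had 96.5, 46.4 and 107 RPKM, lowest in library 2, and transcripts of other genes cover 83.7% of the MALAT1 exon bases, nearly all on the other strand, so that its level is uncertain.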
